A study of Mus musculus with 7 samples.

Results

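Cultured cardiac mesenchymal progenitors (CMPs) from adult mouse heart were compared with whole adult mouse heart on Agilent one-colour expression arrays. The comparison takes 5 of the 7 arrays of the series, chosen by their titles: the 4 arrays of CMP cultures and the single array of purchased total heart RNA. Every gene on the array was compared, and the other 2 arrays, both of fetal heart, served as a second reference and helped to estimate the spread.

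The CMPs came from C57BL/6 mice and were grown on collagen I in DMEM/F12 to which 10% FBS and bFGF at 40 ng/ml were added (bFGF is the fibroblast mitogen encoded by Fgf2). Each culture stood for a different source, namely atrial or ventricular tissue, taken either from living animals or postmortem after 24 h at 4 °C. The adult heart RNA was a commercial preparation from Clontech, whose strain, age, sex and number of animals the labels do not give. The fetal hearts were from embryonic day 16.5 and were C57BL/6 wild type in one case and C57BL/6-Tg(Myh6-EGFP)MG2, a line that carries the fluorescent protein under the cardiomyocyte promoter of Myh6, in the other. The submitters used the hearts as positive controls, so the comparison shows which heart transcripts the cultures carried and which they carried in addition. It sets a cultured, selected cell population against a whole organ, so cell type, culture and tissue cannot be told apart. Nothing in the labels says that the CMP arrays come from separate animals or repeated cultures, so the p-values measure only the spread between these samples.

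Most of the mass of the heart is cardiomyocyte, a cell packed with sarcomeres and mitochondria that burns mainly fatty acids and rarely divides. Fibroblasts and other mesenchymal cells make the collagen network between the myocytes, and cells of this kind attach to plastic, divide in serum and take on a contractile, matrix-producing state in culture. Blood vessels, macrophages, nerve sheath cells, mesothelium and fat make up most of the rest.

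Signals are given as log2 of the processed spot signal minus the 75th percentile of the same array, so that 0 is the level below which 75% of probes lie and a step of 1 is a factor of 2. Between 46.5% and 52.5% of probes stood well above background on the 7 arrays, and no spot was saturated. All arrays came from 1 slide and 1 scan, but the 4 CMP arrays filled its first column and the hearts its second, so slide column and sample type coincided. The lowest signal well above background was -3.41 on the adult heart array and between -4.51 and -3.97 on the CMP arrays. All 13 markers fixed for CMPs, among them Col1a1, Pdgfra, Thy1 and Ly6a, stood well above background on all 4 CMP arrays. Of 8 cardiomyocyte markers, only Tnnt2 did so, while Myh6, Actc1, Tnni3 and Myl7 were not well above background on any CMP array. The log2 of the summed linear signals of the 8 cardiomyocyte markers was 0.48 to 4.12 on the CMP arrays against 12.6 in adult heart. In bulk samples such as these, fewer cells of a type and less RNA per cell cannot be told apart.

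Of 20270 genes well above background on all 4 CMP arrays or in adult heart, 9914 differed between CMPs and adult heart at an adjusted p under 0.05 (limma with Benjamini-Hochberg adjustment, called below), which is 48.9% of those tested. Called genes were split into 4998 that were higher in CMPs (24.7%) and 4916 that were lower (24.3%). The median difference over all genes tested was -0.00138. Adult heart had 1 array, so its spread was assumed to equal that within the CMP and fetal groups; an exact permutation test of 1 array against 4 cannot go below p = 0.2 (two-sided). The adult value lay outside the range of the 4 CMP arrays for 81.4% of genes tested, above all of them for 8262 genes and below all of them for 8244. The largest gaps lay mostly on the heart side: 673 genes were at least 32-fold lower in CMPs by the fitted value and 122 were at least 32-fold higher. Signal was absent by the background criterion from all 4 CMP arrays but present in adult heart for 1367 genes, and absent from adult heart but present on all 4 CMP arrays for 1197. For such genes a fold is given as "at least", computed from the lowest signal well above background on the dim side or the gene's own signal there if that was higher.

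The 4 cultures resembled each other far more than any of them resembled heart. Living atrial and living ventricular CMPs differed at least 2-fold at 1210 of the 20270 genes, and the 4 CMP arrays differed from adult heart at 9811 to 10260. Postmortem atrial CMPs stood apart from the other cultures, with 2925 to 3558 such genes. Differences of at least 2-fold on every one of the 4 CMP arrays numbered 3369 in the higher direction (16.6%) and 4141 in the lower direction (20.4%). Without the postmortem atrial array 10931 genes were called, and 9619 of the 9914 calls were kept in the same direction.

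**Figure D1:**
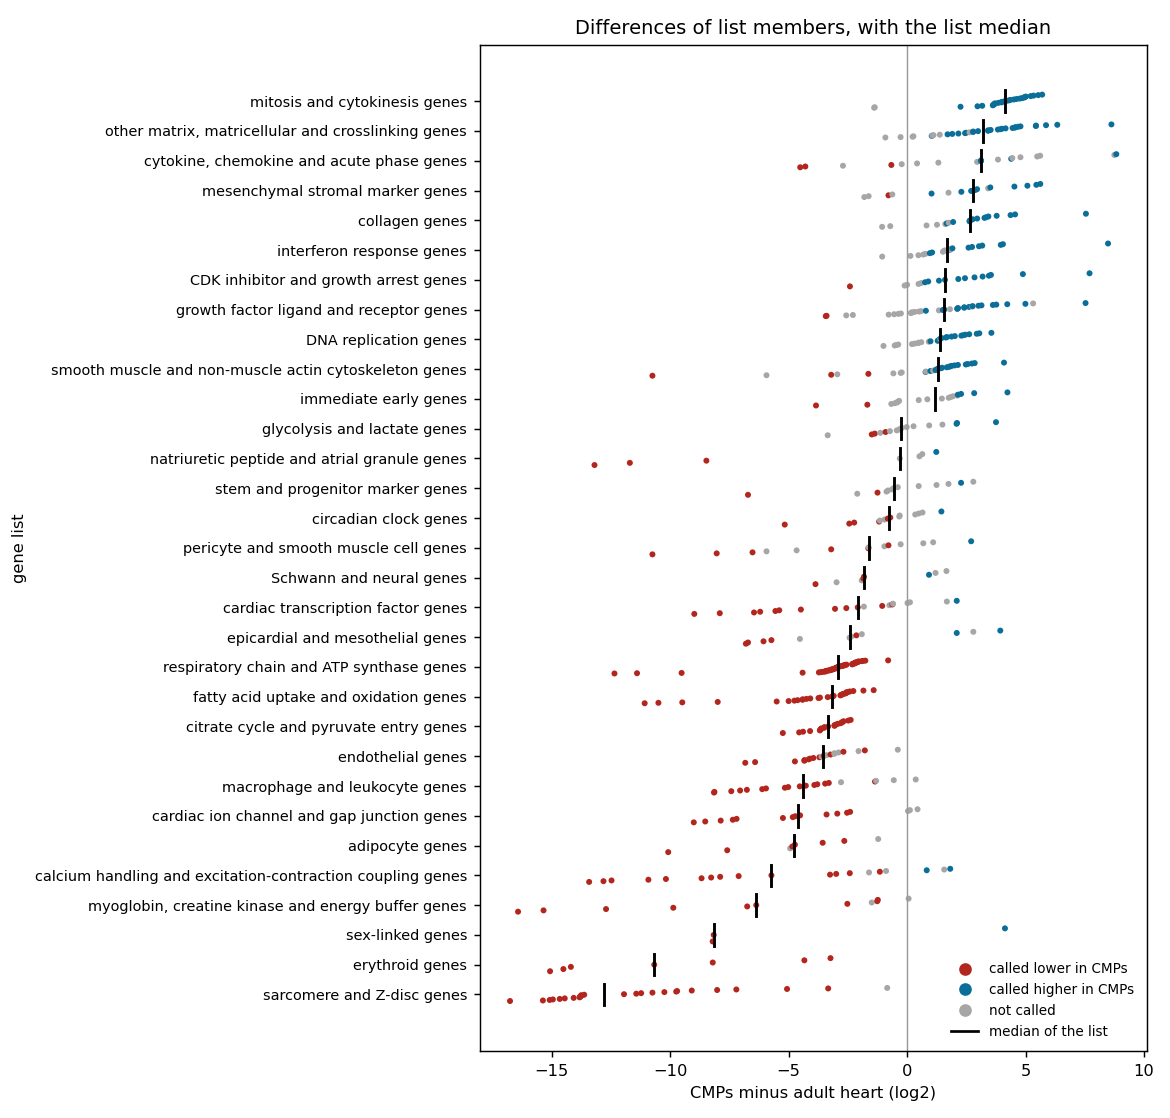
Difference between CMPs and adult heart (log2, horizontal axis) for each tested member of the gene lists (rows, ordered by median), coloured by call, with the median of each list as a black bar. Sarcomere genes lie farthest to the left with a median of -12.79 and mitosis genes farthest to the right with a median of 4.14, while the 50 respiratory chain genes all lie left of 0.

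Genes of the sarcomere, the contractile unit of the cardiomyocyte, showed the largest differences. All 26 listed sarcomere and Z-disc genes were on the array and well above background in adult heart. Of these 25 were called lower in CMPs and none higher, with a median difference of -12.79. The shares over all genes were 24.3% lower and 24.7% higher. All but 6 of the 26 passed the filter only through adult heart, so that their direction largely followed from it. With a signal required on both sides, 5 of the 6 left were called lower (median -6.14). Of the 26, 15 were not well above background on any CMP array, and with those at their bounds the median was -11.57. Actc1, the cardiac actin (probe at chr2:113873064-113873123, mm9), read -6.10, -6.46, -6.06 and -5.99 on the CMP arrays, here and below with the postmortem pair before the living pair and the atrium before the ventricle in each, against 10.61 in adult heart. None of those CMP values was above background, and Actc1 was at least 28046-fold lower in CMPs (fitted difference, with CMPs at background, -16.76 ± 0.32 SE, adjusted p = 3.61e-06, limma). Myh6, the main myosin heavy chain of adult mouse heart, was at least 23717-fold lower (adult 10.37, CMPs -5.40 to -4.64), and Myl3, the ventricular essential light chain, at least 27998-fold lower (adult 10.61, CMPs -4.82 to -4.30). Tcap, the titin cap, was at least 16013-fold lower, Tnni3, the inhibitory cardiac troponin, was also at the CMP background (-4.65 to -4.04 against 9.27), and Myom2, an M-band protein, was at least 7459.8-fold lower. The plot of levels by array shows these genes near the floor on all 4 CMP arrays. Against fetal heart 25 sarcomere genes could be tested and all 25 were called lower, with a median of -10.73; the background there was 46.9% called of 20044 genes (24.5% lower), and both comparisons share the CMP arrays. Levels ran in the order adult heart, fetal heart, CMPs without overlap between arrays for 19 of the 26 genes. How many of all genes ran in that order was not counted.

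Promoters of these genes carry serum response and MEF2 sites in textbook accounts of cardiac transcription. Promoter sequence (RefSeq, GRCm38.p6, the 250 bases before each start) was available for 24 of the 26 genes. The CArG box, the core of the serum response element, was found on either strand in 25.0% of them and in 1.6% of all 27025 symbols with a promoter; the MEF2 site was found in 16.7% against 3.4%. The stretches before Actc1, Myl3 and Myl7, 3 genes that hold the box and were not well above background on any CMP array, are shown with the box in capitals. A match is a description of the letters and no evidence of binding.
Actc1, chr2:114052876-114053025, minus strand: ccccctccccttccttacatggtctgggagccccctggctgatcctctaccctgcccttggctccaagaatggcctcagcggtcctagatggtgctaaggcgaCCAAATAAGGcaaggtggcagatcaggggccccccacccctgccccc
Myl3, chr9:110763528-110763677, plus strand: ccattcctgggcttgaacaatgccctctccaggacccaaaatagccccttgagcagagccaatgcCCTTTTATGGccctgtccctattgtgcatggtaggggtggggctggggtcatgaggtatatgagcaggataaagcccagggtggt
Myl7, chr11:5898783-5898932, minus strand: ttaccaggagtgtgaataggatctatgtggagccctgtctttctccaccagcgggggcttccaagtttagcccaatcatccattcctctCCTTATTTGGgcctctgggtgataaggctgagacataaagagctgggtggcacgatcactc

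**Figure D2:**
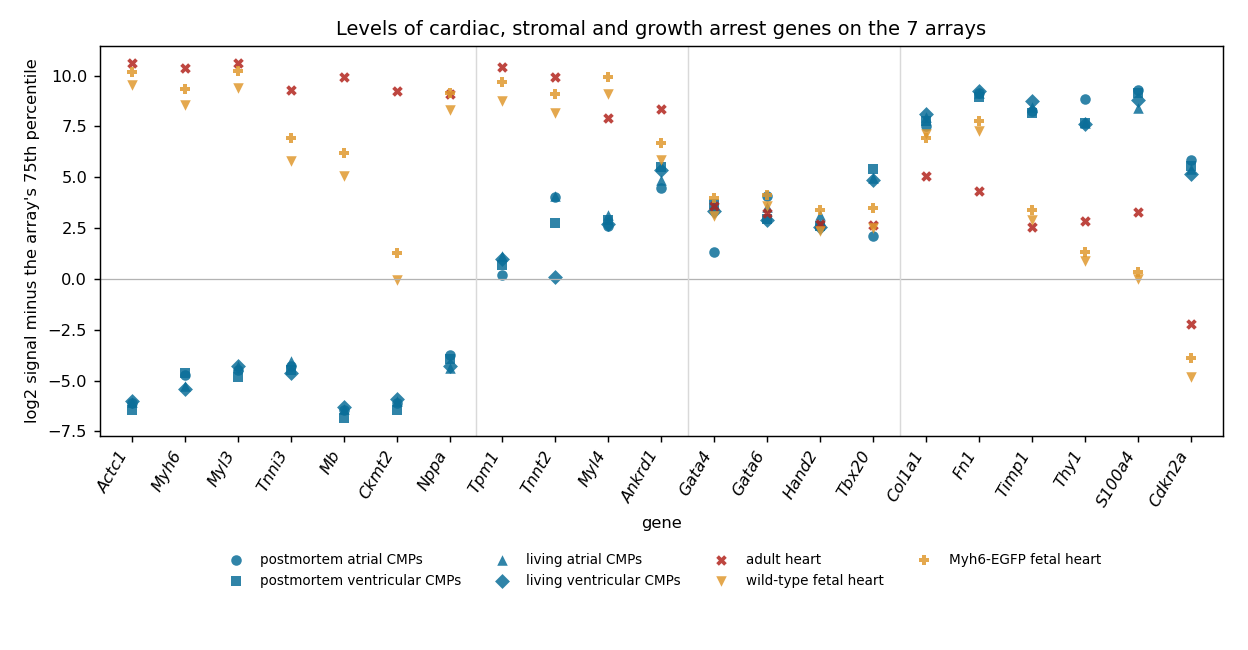
Level of 21 genes on each of the 7 arrays (log2 signal minus the 75th percentile of the array, vertical axis; 1 symbol per array). The 7 genes on the left read below -3 on every CMP array and, in adult heart, above 9. The next 4 were measurable in CMPs but lower than in adult heart. Cardiac transcription factors overlapped between sample types, and stromal genes on the right were highest in CMPs.

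Only 6 sarcomere genes stood well above background on all 4 CMP arrays. Tnnt2, cardiac troponin T, read 4.02, 2.73, 4.10 and 0.11 against 9.95 in adult heart, a difference of -7.21 ± 1.43 (adjusted p = 0.00639, limma), and living ventricular CMPs were lowest among the cultures. Myl4, the atrial essential light chain, read 2.61 to 3.14 on the CMP arrays against 7.91, and Ankrd1, a stretch-responsive ankyrin repeat protein, read 4.48 to 5.51 against 8.38; both were called lower. Ldb3, a Z-disc protein, was just above the floor (-2.73 to -1.94 against 5.83). Tnni1, the slow skeletal troponin I of the fetal heart, was the member not called: it read -1.0 in postmortem atrial CMPs, -3.02 to -2.86 in the others and -1.62 in adult heart. Without the postmortem atrial array Tnni1 was called lower at -1.33.

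Tpm1, alpha-tropomyosin, is spliced to give muscle and non-muscle forms, and its 6 probes did not move together. The pair at chr9:66875782-66875841 and chr9:66875796-66875855 (mm9) differed by -9.55 and -9.71 between CMPs and adult heart. The pair at chr9:66871166-66871225 and chr9:66872131-66872190 differed by 2.08 and 2.00 in the opposite direction, reading 2.90 to 3.55 on the CMP arrays against 1.30 and 1.2 in adult heart. Asph, which encodes both a hydroxylase and the junctional calcium-release protein junctin, had probes that differed by 1.22, -1.15, -10.40 and -4.48. The gene-level difference of Tpm1 (-9.71) and that of Asph (-1.15) therefore describe 1 probe each, the one with the highest mean signal.

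Transcription factors of the heart included members at the level of adult heart and members far below it. Of 22 listed, 19 were tested, 12 were called lower and 1 higher, against 24.3% and 24.7% of all genes, with a median of -2.08. With a signal required on both sides, 15 were left, of which 8 were called lower and 1 higher (median -1.05). The rest had passed the filter only through adult heart. Gata4, Gata6 and Hand2, factors active in heart muscle and its mesenchyme, were not called. Gata6 read 4.06, 2.92, 3.52 and 2.90 against 3.23 in adult heart (difference 0.12 ± 0.47), and Hand2 read 2.57 to 3.14 against 2.71 (0.02 ± 0.41). Gata4 read 3.33 to 3.68 in 3 cultures, 1.32 in postmortem atrial CMPs and 3.59 in adult heart. Tbx20, a T-box factor of the heart, was at 4.88 to 5.39 in the same 3 cultures and 2.11 in postmortem atrial CMPs against 2.66; it was not called with all 4 arrays and was called higher at 2.42 without that array. Tbx18, a factor of epicardium and its derivatives, was the factor called higher (2.09 ± 0.49, limma adjusted p = 0.0127). Lower were Nkx2-5, the early cardiac homeobox factor (-2.69, -1.28, -0.48 and -1.86 against 4.63), the ventricular factor Irx4 (-3.58 to -2.93 against 3.21) and Myocd, the coactivator of serum response factor in muscle, which was at least 156-fold lower and dim on all CMP arrays. Esrrb and Esrrg, nuclear receptors of mitochondrial gene control, were called lower by 7.91 and 5.40. Tbx5 and Tbx3, T-box factors of chamber and conduction tissue, were called lower at -3.04 and -2.56. Both calls ended without the postmortem ventricular array (limma adjusted p = 0.0594 and 0.0563), and that of Tbx5 also without the living ventricular array or without either fetal array (0.0553 to 0.0554). Without the postmortem atrial array 2 of the 19 factors were called higher and 14 lower. Without the postmortem ventricular, living atrial or living ventricular array 9, 11 and 10 were called lower, and 1 higher each time.

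Calcium handling genes, which couple excitation to contraction, ranged from background to clearly measurable in CMPs. Of 19 tested, 14 were called lower and 2 higher, against 24.3% and 24.7% of all genes, with a median of -5.73. The median was -2.90 with normexp background correction. Among the 10 genes well above background in CMPs and adult heart alike, 5 were called lower and the median was -1.38. Not well above background on any CMP array were 5 of the 19, namely Pln, Srl, Casq1, Casq2 and Sln: Pln, the inhibitor of the calcium pump, was at least 2698-fold lower, Casq2, the calcium store protein, at least 1765-fold lower and Sln, the atrial pump inhibitor, at least 1539-fold lower. Atp2a2, the pump itself, was measurable at 2.02, 1.26, 1.67 and 1.14 against 8.63 (difference -7.11 ± 0.46, adjusted p = 0.000118, limma). Hrc, a histidine-rich store protein, read 0.98 in postmortem atrial CMPs and -2.78 to -2.27 in the other cultures against 8.56. Fkbp1b, a ryanodine receptor partner, was called higher by 1.82. Slc8a1, the sodium-calcium exchanger, gave 1.57 on its brightest probe and -3.81 and -5.22 on its 2 others, so no direction is given for it; on the brightest probe it was called at 1.87 without the postmortem atrial array.

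Channel genes that shape repolarization were mostly at or near background, and none of the list was called higher. Of 19 channel and gap junction genes 16 were tested, 13 were called lower and none higher, with a median of -4.62. The shares over all genes were 24.3% lower and 24.7% higher. Only 5 had a signal well above background in CMPs and adult heart alike. With both sides required, 2 of the 5 were called lower and the median was 0.04. The others passed the filter only through adult heart, so that a higher call was hardly possible for them. Kcnq1, Kcnip2 and Kcnd2, which carry or tune repolarizing currents, were at least 252-, 102- and 70.0-fold lower, with all 4 cultures at background. Gja1, connexin 43, the main ventricular gap junction protein, was called lower by 2.53 (1.11, -0.22, -0.26 and -0.81 against 2.49). Hcn2, a pacemaker channel, read 5.72 to 5.97 in CMPs and 5.45 in adult heart and was not called. Among natriuretic peptide genes, Nppa and Nppb, the hormones of stretched myocytes, were the extremes: Nppa was at least 8374-fold lower (adult 9.10), Nppb was lower by 11.70, and Corin, the protease that activates the Nppa product, was at least 79.8-fold lower. Pam and Furin, general peptide-processing enzymes, were not called, and Npr2, the C-type peptide receptor, was the member called higher (1.23), a call that ended without the living atrial array (limma adjusted p = 0.0547).

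Genes of oxygen storage and of the phosphocreatine system included some of the widest differences. Mb, myoglobin, read -6.83 to -6.30 in CMPs and 9.93 in adult heart, at least 17517-fold lower. Ckmt2 and Ckm, the mitochondrial and muscle creatine kinases, were at least 10738- and 2060.2-fold lower, and Slc2a4, the insulin-responsive glucose transporter, was lower by 9.87 with a signal in every culture (-2.49 to -1.87). In fetal heart, which was set against the same CMP arrays, Ckmt2 read -0.07 and 1.27. Of the 11 genes of this list 9 were called lower, against 24.3% of all genes, with a median of -6.37. Only 7 were well above background on all 4 CMP arrays, and the others passed the filter only through adult heart. With a signal required on both sides, 6 of the 7 were called lower (median -2.52). Ckb, the brain-type creatine kinase, was at 2.10 to 3.67 against 2.96.

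Mitochondrial genes differed less but without exception in the lists examined. All 50 respiratory chain and ATP synthase genes were called lower in CMPs with a median of -2.90, all 21 citrate cycle and pyruvate entry genes with a median of -3.33 and all 31 fatty acid genes tested with a median of -3.16, against 24.3% of all genes. Of these genes, 49, 21 and 26 respectively were well above background on all 4 CMP arrays, so that most values were measured on both sides. Ndufs1, a core subunit of complex I, read 4.47, 4.45, 4.42 and 4.40 against 7.68 (difference -3.25 ± 0.23, adjusted p = 0.000155, limma). Cyc1 of complex III read 3.87 to 4.27 against 8.48, and Atp5b of the ATP synthase 7.43 to 7.70 against 9.74. These genes varied little between cultures: the median SD of the respiratory list over the 4 CMP arrays was 0.123. The muscle forms of cytochrome c oxidase subunits, Cox6a2, Cox8b and Cox7a1, lay far below the rest at -12.35, -11.40 and -9.52. Within the list, Atp5c1 was closest to heart at -0.80. The list left out the general forms of these oxidase subunits. Of those, Cox6a1 and Cox8a were not called (0.16 ± 0.30 and -0.43 ± 0.31), and Cox7a2 was called lower by 2.40. Got1, the aspartate aminotransferase of the malate shuttle, Idh3b of the citrate cycle, and Dlat of the pyruvate dehydrogenase complex led their list at -5.24, -4.56 and -4.39. Cs, citrate synthase, read 6.32 to 6.52 against 9.17.

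Fatty acid genes included both muscle-restricted and general steps. The list held Cpt1b and Fabp3 but left out their partners Cpt1a and Fabp5. Those were called higher by 2.29 and 1.21, and the call of Fabp5 ended without the postmortem ventricular array. Cpt1b, the muscle enzyme of mitochondrial fatty acid entry, and Cd36, the fatty acid transporter, were dim on all CMP arrays and at least 989.9- and 400.4-fold lower. Ppargc1a, the coactivator of mitochondrial genes, was lower by 7.99 and Ppara, the fatty acid receptor, by 2.56 (-0.30 to 0.08 against 2.41). Beta-oxidation enzymes were present and lower: Acadm read 3.24 to 3.88 against 7.92, Hadhb 3.93 to 4.45 against 8.58 and Acadvl 5.41 to 5.60 against 8.69. Against fetal heart (5.05 and 5.94) Acadvl was not called, with a difference of 0.03. Fabp3, the heart fatty acid-binding protein, read 2.83 in postmortem atrial CMPs and -1.74 to -0.29 in the others against 9.5. Lpl, lipoprotein lipase, ran the other way among the cultures, at 0.91 in postmortem atrial CMPs and 3.73 to 5.58 in the others against 8.70.

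The adult heart also stood above fetal heart in most of these genes. Levels ran in the order adult, fetal, CMP without overlap for 48 of 50 respiratory, 19 of 21 citrate cycle and 18 of 31 fatty acid genes. The share of all genes in that order was not counted. Against fetal heart the medians were -1.37, -1.29 and -0.96, with 47, 18 and 18 genes called lower and, in the fatty acid list, 1 called higher. Over all genes tested there, 24.5% were called lower and 22.4% higher. Among promoters, the NRF1 motif GCGCANGCGC was found in 13.5% of 37 respiratory, 11.5% of 26 fatty acid and 5.3% of 19 citrate cycle genes, against 4.2% of all. The estrogen-related receptor motif TNAAGGTCA was found in 2.7% of the respiratory genes and none of the others, against 1.3%.

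Listed glycolysis genes had a small median difference, with 3 of 17 called higher, 3 lower and a median of -0.27. Both counts were below the shares over all genes, 24.7% higher and 24.3% lower. The list held Hk2 but left out the muscle forms Pfkm, Pgam2, Eno3 and Ldhb. Those were called lower by 4.32, 8.20, 7.67 and 5.77. Ldha, Pgk1, Pkm2 and Hk1 were not called, with differences between -0.44 and 0.27. Slc2a1, the general glucose transporter, was called higher by 2.11 and Eno1, the general enolase, by 2.09. Slc16a3, the lactate exporter, read 2.78, 3.90, 4.58 and 6.49 against 0.69 (3.75 ± 1.23, limma adjusted p = 0.0418). Its call ended without the postmortem ventricular array, the living atrial array or either fetal array (0.0634 to 0.0729). Called lower were Tpi1, Aldoa and Gapdh, by 1.49, 1.36 and 0.91. Without the postmortem ventricular array, or without the living atrial array, 1 of the 17 genes was called lower, and 5 were without either fetal array or with the CMP and adult heart arrays alone. The call of Gapdh also ended without the postmortem atrial array (limma adjusted p = 0.0715).

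Pairs of related genes, of which 1 is the muscle form, showed the same division within protein families. In 23 pairs the muscle gene was called lower in 22 and higher in none, against 24.3% and 24.7% of all genes. Several muscle genes passed the filter only through adult heart, so that their direction, and their place below the partner, largely followed from it. Among them were Actc1, Myh6, Myl3, Actn2, Ckm, Cpt1b and Rpl3l, all dim on every CMP array. Hk2, the muscle hexokinase, had a limma adjusted p of 0.0532. It was called lower without the postmortem atrial array (-2.63, limma adjusted p = 0.00483) and without the living ventricular array (-3.81, 0.0309). The other gene of the pair was called higher in 11, lower in 4 and not called in 8, and the difference of the muscle gene lay below that of its partner in 23 of 23. The medians were -9.52 and 0.93. Rpl3l, a ribosomal protein of heart and skeletal muscle, read -6.41 to -5.86 in CMPs and 5.98 in adult heart, while Rpl3 read 8.16 to 8.41 and 7.01. Eef1a2, the muscle and neuronal elongation factor, read -3.62, -2.88, -1.28 and -2.48 against 5.40, and Eef1a1 8.17 to 8.31 against 6.62. Cpt1a, the liver form of the fatty acid entry enzyme, was higher by 2.29 where Cpt1b was at least 989.9-fold lower. Acaca and Acacb, the cytosolic and mitochondrial acetyl-CoA carboxylases, differed by 2.09 and -4.59. The partners called lower included Cox7a2, Slc25a5 and Pygb (-2.40, -1.52 and -3.31).

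**Figure D3:**
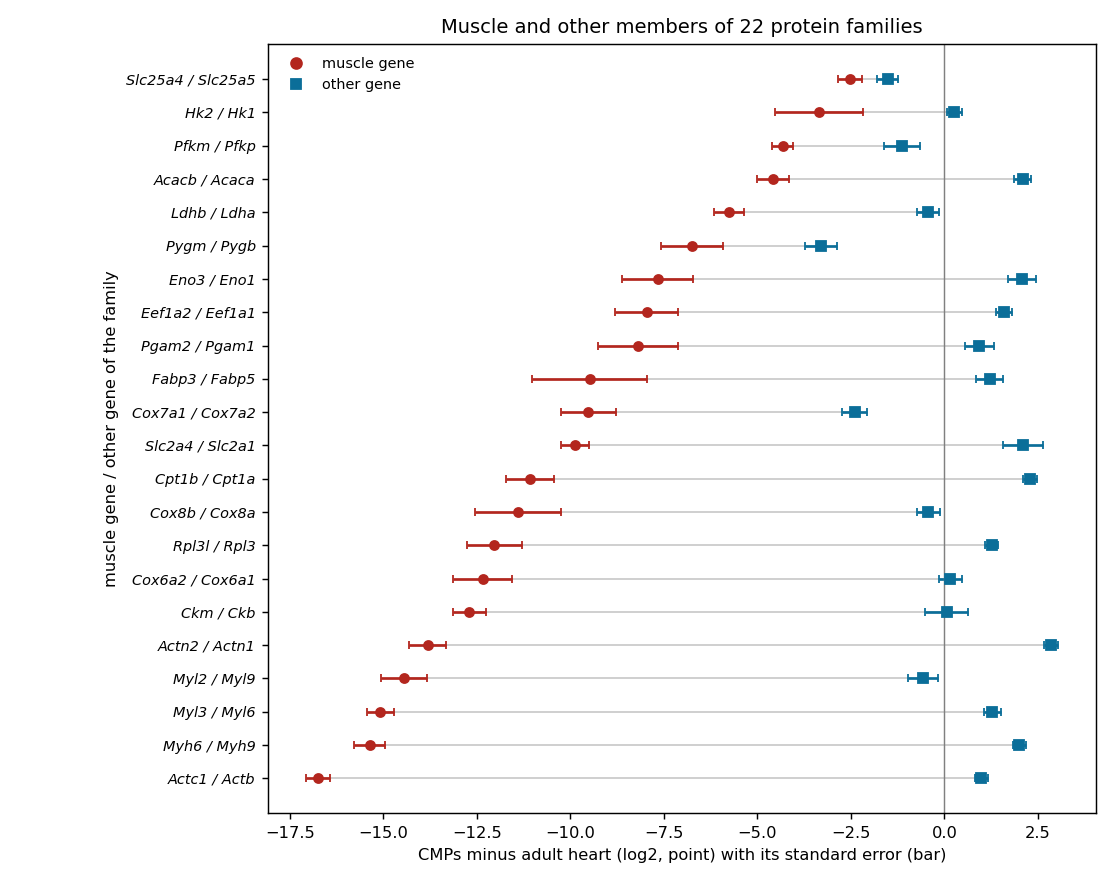
Difference between CMPs and adult heart (log2, horizontal axis) with its standard error for the muscle gene (red circle) and the other gene (blue square) of 22 of the protein families. In each row the circle lies to the left of the square, from Actc1 at -16.76 and Actb at 0.98 to Slc25a4 at -2.52 and Slc25a5 at -1.52.

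On the other side of the comparison stood the extracellular matrix. Of 20 collagen genes 14 were called higher and none lower (median 2.67), and of 34 tested matrix, matricellular and crosslinking genes 26 were higher and none lower (median 3.21), against 24.7% of all genes. All of them were well above background on the 4 CMP arrays. Col1a1, the main fibrillar chain, read 7.51, 7.76, 7.97 and 8.09 against 5.07 in adult heart (2.77 ± 0.24, adjusted p = 0.000285, limma), and Col1a2 and Col3a1 were higher by 2.70 and 3.27. Col11a1, a chain of thin fibrils, was at least 41.3-fold higher, Col8a1 was higher by 4.56 and Col12a1 at least 20.6-fold higher. Col15a1, Col8a2, Col6a3 and Col5a3 were not called. Fn1, fibronectin, read 9.15, 8.97, 9.16 and 9.23 against 4.34 (4.78 ± 0.22, limma adjusted p = 4.2e-05). Timp1, an inhibitor of matrix proteases, was higher by 5.86, the protease Mmp3 by 6.34 and Thbs1, thrombospondin, by 5.44. Lox, which crosslinks collagen and elastin, read 3.07, 4.40, 4.60 and 5.35 and was not well above background in adult heart, at least 218-fold higher. Dcn and Lum, decorin and lumican, which tissue fibroblasts secrete in quantity, were not called (differences -0.92 ± 0.59 and -0.28 ± 1.12). Postn, the periostin of activated fibroblasts, ran from 1.81 to 5.92 across the cultures and spanned the adult value of 2.52.

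Surface and stromal markers were all measurable in CMPs, with 10 of 16 called higher, 1 lower and a median of 2.79. Over all genes 24.7% were called higher and 24.3% lower. S100a4 read 9.31, 9.14, 8.39 and 8.82 against 3.29 (5.62 ± 0.35, adjusted p = 0.000108, limma). Cd44, the hyaluronan receptor, was higher by 5.46, Thy1 by 5.08 and Vcam1 by 4.53, and the receptors Pdgfra and Pdgfrb by 3.51 and 2.70. Ly6a, the Sca-1 antigen used to isolate mouse cardiac progenitors, read 7.72, 5.47, 5.83 and 5.19 against 4.31 in adult heart and below -3 in fetal heart. It was above adult heart on all 4 arrays but not called (1.75 ± 0.89, limma adjusted p = 0.148); it was called at 1.19 without the postmortem atrial array. Nt5e, CD73, read -2.60, -1.21, -0.31 and 1.61 against 1.18 and was not called with all 4 cultures; without the living ventricular array it was called lower (-2.55, limma adjusted p = 0.0495). Eng and Ddr2, an endoglin and a collagen receptor of fibroblasts, were called higher at 1.03 and 2.95 and Mcam lower at -0.79. The calls of Eng and Ddr2 ended without the postmortem ventricular and without the living ventricular array, and those of Eng and Mcam without the living atrial array. That of Mcam also ended without the living ventricular or either fetal array. Without the postmortem atrial array 12 of the 16 genes were called higher and 2 lower.

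Markers of stem and progenitor cells gave no common direction. Of 18 listed genes 13 were tested, 1 was called higher (Myc, 2.28) and 2 lower (Wt1 and Nanog), with a median of -0.57. Both counts fell below the shares of 24.7% and 24.3% over all genes. Kit, a receptor used to mark cardiac progenitors, read -3.98, -1.35, -0.37 and -2.43 against -1.17. Pou5f1, Sox2, Isl1, Mesp1 and Zfp42 did not pass the background filter in either CMPs or adult heart. Tcf21, a fibroblast and epicardial factor, read 0.81 in postmortem atrial CMPs and 3.62 to 3.84 in the others against 0.18, and was called at 3.52 without the postmortem atrial array. Without that array 3 of the 13 genes were called higher and 4 lower; without the postmortem ventricular or the living atrial array the call of Nanog ended.

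Actin cytoskeleton genes were mostly higher, apart from those of differentiated smooth muscle. Of 29 tested, 19 were called higher and 3 lower, against 24.7% and 24.3% of all genes, with a median of 1.29. Cald1, caldesmon, was higher by 4.09, the alpha-actinin Actn1 by 2.85, Cnn3, calponin 3, by 2.73 and Tpm4 by 2.56. Acta2, smooth muscle actin and the marker of myofibroblasts, read 6.33, 7.52, 6.87 and 7.26 against 7.27 and was not called. Des, desmin, was at least 984-fold lower, and Cnn1 and Smtn, calponin 1 and smoothelin, were lower by 3.20 and 1.63. Myh9, a non-muscle myosin, was called higher at 2.00 on its brighter probe and differed by -1.88 on its other probe.

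Cell division genes were the group with the largest positive median. Of 28 tested mitosis and cytokinesis genes 26 were called higher in CMPs and none lower (median 4.14). For 12 of the 28 adult heart gave no signal above background, so that they passed the filter only through the CMP arrays and their direction followed from it; with those at their bounds the median was 3.68. Of the 15 genes well above background in CMPs and adult heart alike 14 were called higher, against 24.7% of all genes. Ccnb1, cyclin B1, read 3.01, 3.24, 2.16 and 2.77 in CMPs and -2.90 in adult heart (5.70 ± 0.38, adjusted p = 0.000127, limma). Cdk1, its kinase, was at least 34.2-fold higher, the spindle protein Tpx2 at least 36.3-fold, and Prc1, Plk1 and Anln were higher by 5.34, 4.97 and 4.86. Mki67, the Ki-67 antigen, read 3.76, 4.08, 2.83 and 3.15 against 0.29. Cenpa and Cenpf, centromere proteins, were not called. Both postmortem cultures had higher list medians than both living cultures, at 2.29 and 2.39 against 1.46 and 1.87.

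DNA replication genes were higher by less. Of 29 tested 18 were called higher and none lower, against 24.7% and 24.3% of all genes, with a median of 1.37. Rrm2 and Tk1, which supply nucleotides, were higher by 3.56 and 3.05, and the helicase subunits Mcm6 and Mcm3 by 2.94 and 2.46. Pcna, the sliding clamp, read 4.43, 4.53, 3.86 and 3.95 against 3.71 and was not called.

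Set against fetal heart, the same CMP arrays lay on the other side. All 26 called mitosis genes of 29 tested and all 28 called replication genes of 30 tested were lower in CMPs than in fetal heart, with medians of -1.63 and -1.91. Over all genes, 24.5% were called lower than in fetal heart. Levels ran in the order fetal heart, CMPs, adult heart without overlap for 25 of 28 mitosis and 20 of 29 replication genes. That order was not counted over all genes. Birc5, survivin, for example, read 3.52 to 4.84 in CMPs, 6.51 and 6.46 in the fetal hearts and 0.55 in adult heart.

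Promoters of cell cycle genes are known for CCAAT boxes and for the CHR element. CCAAT was found on either strand in 76.0% of 25 mitosis genes and 62.5% of 24 replication genes with a RefSeq promoter, against 37.5% of all. The CHR, spelled TTTGAA, was found in 40.0% and 12.5% against 18.3%, and the E2F motif TTTNNCGC in 4.0% and 29.2% against 4.9%. CCAAT and CHR stand in capitals in the stretches before Cdk1 and Cdc20, whose levels in CMPs lay between those of the hearts (Cdc20 at 3.26 to 4.51, against -0.28 in adult and 5.25 and 5.20 in fetal heart).
Cdk1, chr10:69352913-69353062, minus strand: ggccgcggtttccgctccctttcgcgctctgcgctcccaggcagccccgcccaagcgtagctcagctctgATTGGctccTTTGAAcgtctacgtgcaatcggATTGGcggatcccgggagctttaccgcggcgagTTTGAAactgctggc
Cdc20, chr4:118437344-118437493, minus strand: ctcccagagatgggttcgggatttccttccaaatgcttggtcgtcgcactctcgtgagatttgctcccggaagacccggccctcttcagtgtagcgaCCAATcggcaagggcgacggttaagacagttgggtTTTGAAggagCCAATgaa

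Several inhibitors of the cell cycle were also higher. Of 17 genes of growth arrest and G1 control 12 were called higher and 1 lower, against 24.7% and 24.3% of all genes, with a median of 1.6. Cdkn2a, which encodes p16 and p19ARF, read 5.84, 5.55, 5.42 and 5.14 in CMPs, -2.21 in adult heart and -4.84 and -3.87 in the fetal hearts (7.70 ± 0.41 against adult, adjusted p = 6.55e-05, limma). Cdkn2b, p15, read 3.79 to 4.02 against -0.98 (4.89 ± 0.19), and Cdkn1a, p21, 4.45 to 5.05 against 1.39 (3.45 ± 0.29). These 3 genes were higher on all 4 CMP arrays than on all 3 heart arrays. Cdkn1c, p57, was the gene called lower, at -2.41, and read 7.55 and 7.99 in the fetal hearts. The cyclins Ccnd1, Ccne1 and Ccnd2 were higher by 3.54, 3.19 and 2.85.

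**Figure D4:**
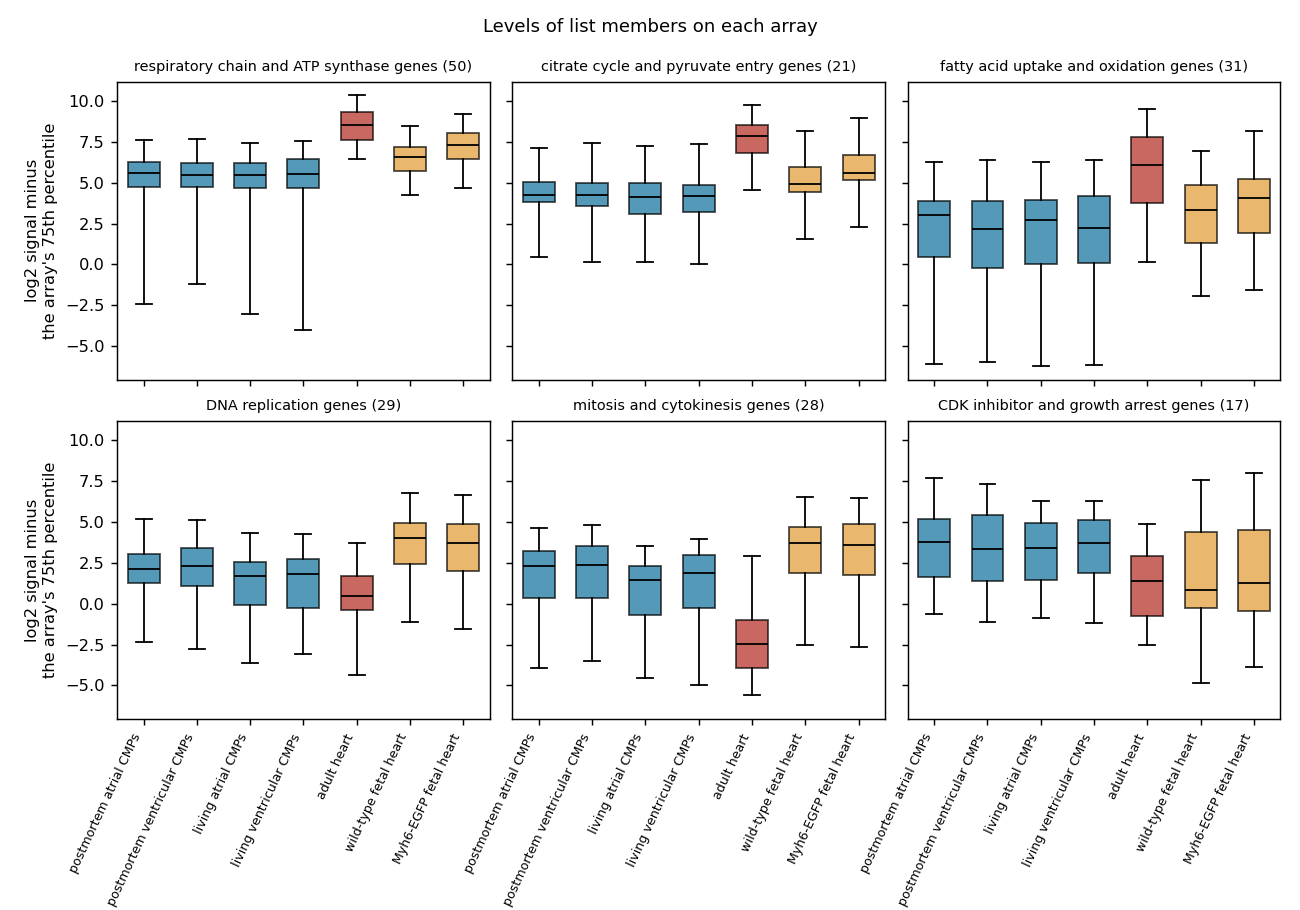
Levels of the tested members of 6 gene lists on each of the 7 arrays (log2 signal minus the 75th percentile of the array, vertical axis; box from the lower to the upper quartile, line at the median, whiskers to the extremes; number of genes in brackets). Mitochondrial genes (top) are highest in adult heart, with a respiratory median of 8.55 there against 5.47 to 5.57 in CMPs, while mitosis genes have a median of -2.48 in adult heart, 1.46 to 2.39 in CMPs and 3.59 to 3.73 in the fetal hearts.

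Cytokine and acute phase genes had high levels in 3 cultures and low levels in postmortem atrial CMPs. Of 18 tested, 4 were called higher and 3 lower with all 4 cultures (median 3.12), both below the shares of 24.7% and 24.3% over all genes. Without the postmortem atrial array 13 of 20 were called higher and 3 lower. Il6, interleukin 6, read -0.29, 3.55, 5.07 and 5.95 and was not above background in adult heart (at least 126-fold higher, adjusted p = 0.0128, limma). Cxcl5, a neutrophil chemokine, read -1.91, 6.65, 8.33 and 8.67 against -3.31, and Ccl2, a monocyte chemokine, 3.41, 7.17, 7.58 and 8.41 against 1.86. Neither was called with all 4 arrays (limma adjusted p = 0.0941 and 0.0519). Saa3, serum amyloid, read -5.23, 3.48, 6.60 and 6.61 against -2.62, so that postmortem atrial CMPs lay below adult heart and the others above it. Csf1, the macrophage growth factor, did not share this split, at 6.60, 6.54, 6.58 and 7.23 against 2.34 (4.39 ± 0.28); its 3 bright probes differed by 4.39 to 4.73 and the fourth, dim in CMPs, by -3.11. Tnfaip6, a hyaluronan-binding protein induced by cytokines, was higher by 3.12. Il1b and the receptor gene Il1rl1 were at background in all cultures and called lower. The median of the list was 0.58 in postmortem atrial CMPs, 3.63 to 6.08 in the other cultures and 0.54 in adult heart.

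**Figure D5:**
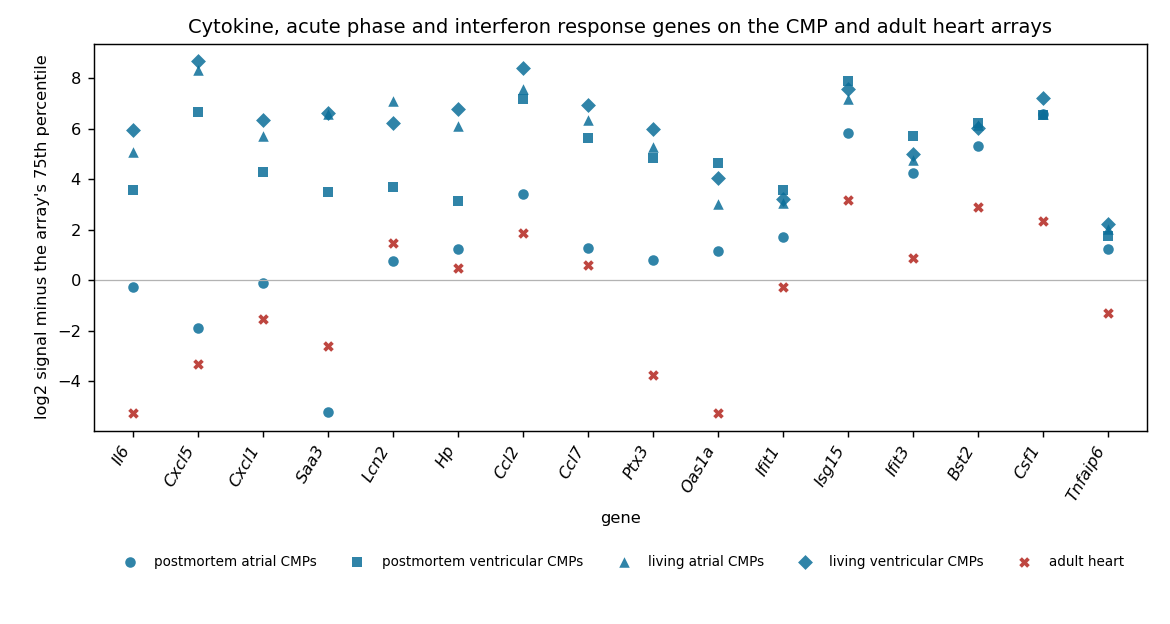
Level of 16 cytokine, acute phase and interferon response genes on the 4 CMP arrays and the adult heart array (log2 signal minus the 75th percentile of the array, vertical axis; 1 symbol per array). For Il6, Cxcl5 and Ccl2 the postmortem atrial array (circle) lies well below the other 3 cultures, whereas Csf1 and Tnfaip6 lie above adult heart on all 4 arrays with little spread.

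Interferon response genes were called higher or not at all, and the median level was lowest in postmortem atrial CMPs (1.52 against 2.79 to 3.63 in the other cultures and 0.19 in adult heart). Of 20 tested 11 were called higher and none lower (median 1.70), against 24.7% and 24.3% of all genes. Without the postmortem atrial array 15 were called higher, and without the postmortem ventricular array 9. Without the living atrial array, or without the living ventricular array, 8 were called higher. Oas1a, which senses double-stranded RNA, read 1.16, 4.65, 3.01 and 4.03 and was dim in adult heart, at least 98.4-fold higher. Isg15, a ubiquitin-like modifier, read 5.84, 7.91, 7.16 and 7.57 against 3.17 (3.95 ± 0.77, adjusted p = 0.00592, limma), and Ifit3 4.26, 5.72, 4.77 and 4.99 against 0.89 (4.04 ± 0.55). Rsad2 and Mx1 were not called. Levels ran in the order CMPs, adult heart, fetal heart without overlap for 12 of 20, an order that was not counted over all genes. The interferon-stimulated response element, spelled GAAANNGAAA and searched on both strands, was found in 62.5% of 16 promoters of the list and 3.5% of all. It stands in capitals before 3 of the genes called higher; overlapping copies merge into 1 run.
Oas1a, chr5:120907526-120907675, minus strand: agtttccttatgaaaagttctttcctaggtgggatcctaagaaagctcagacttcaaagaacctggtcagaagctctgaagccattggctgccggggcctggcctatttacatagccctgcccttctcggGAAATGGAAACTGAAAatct
Isg15, chr4:156200819-156200968, minus strand: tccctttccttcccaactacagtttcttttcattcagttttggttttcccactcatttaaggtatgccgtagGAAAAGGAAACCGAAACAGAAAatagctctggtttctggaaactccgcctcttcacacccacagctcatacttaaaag
Ifit3, chr19:34583379-34583528, plus strand: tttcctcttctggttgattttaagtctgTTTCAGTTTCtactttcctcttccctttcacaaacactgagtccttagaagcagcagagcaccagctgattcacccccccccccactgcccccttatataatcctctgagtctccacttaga

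Growth factor genes were higher in 17 of 35 tested and lower in 2 (median 1.57), against 24.7% and 24.3% of all genes. Hgf, hepatocyte growth factor, read 2.53, 0.17, 3.33 and 1.95 and was dim in adult heart, at least 42.4-fold higher. Inhba, an activin subunit, was higher by 4.99, Fgf7 by 3.76 and Egfr, the epidermal growth factor receptor, by 3.62. Spry2 and Spry4, feedback inhibitors of growth factor signalling, were called higher (Spry2 at least 11.9-fold, Spry4 by 1.51), and Fgf2, the factor supplied in the medium, was at least 6.8-fold higher. Pdgfb, an endothelial ligand, was lower by 3.43, and Igf2 was dim in all cultures and at least 3.09-fold lower.

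Among genes of other heart cell types most calls were in the lower direction. All 20 endothelial genes read higher in adult heart than on any CMP array, as did 8262 of the 20270 genes tested. Of the 20, 13 were called lower and none higher, against 24.3% and 24.7% of all genes, with a median of -3.56. Gpihbp1, the capillary anchor of lipoprotein lipase, read -2.18 to -1.41 against 5.06 (-6.83 ± 0.36, adjusted p = 6.39e-05, limma). Vwf, von Willebrand factor, read -3.51, -0.89, -0.16 and -2.43 against 4.67. Cdh5, vascular cadherin, read -1.25, 1.17, 1.87 and 0.25 against 2.56 and was not called. Of 5 endothelial panel markers 4 stood well above background on all CMP arrays, and the log2 of the summed signals of the 5 was 3.26 to 3.96 against 5.52. Kdr made up most of that sum on a probe that was not called (-0.39), while its other probe differed by -5.60. How far remaining endothelial cells entered the CMP values was not tested.

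All 7 tested erythroid genes were called lower, against 24.3% of all genes. Only 1 of the 7 was well above background on all 4 CMP arrays. The others passed the filter only through adult heart, so that their direction followed from it, and 5 were dim on all CMP arrays. Hbb-b1 (Hbb-bt in RefSeq) and Hbb-b2, globin genes near enough in sequence to share signal, were at least 9555- and 6241-fold lower. Of 20 macrophage and leukocyte genes 16 were called lower and none higher (median -4.40), against 24.3% and 24.7% of all genes. Only 10 were well above background on all 4 CMP arrays, and the others passed the filter only through adult heart. With a signal required on both sides, 7 of the 10 were called lower (median -3.55). Mrc1 and Emr1 were dim on all CMP arrays and at least 77.9- and 50.2-fold lower. Csf1r, the receptor of Csf1, was measurable at 1.61 to 2.29 against 5.40. Among 12 tested epicardial and mesothelial genes 5 were lower and 2 higher, where all genes had 24.3% lower and 24.7% higher: Wt1, Muc16 and Krt8 were dim on all CMP arrays, while Aldh1a2, the retinoic acid synthase of the epicardium, was higher by 3.93 together with Tbx18. With a signal required on both sides, 5 epicardial genes were left, of which 1 was called lower and 2 higher (median 2.09). The rest had passed the filter only through adult heart. Of 14 pericyte and smooth muscle genes 6 were lower and 1 higher, against 24.3% and 24.7% of all genes, with a median of -1.63. Only 9 had a signal on both sides, and of these 3 were called lower and 1 higher (median -0.79). Abcc9 and Kcnj8, subunits of a potassium channel in pericytes, were lower by 8.04 and at least 33-fold lower. Rgs5, a pericyte marker, read 3.25, -2.60, 1.59 and -5.54 against 3.84, with atrial cultures high and ventricular cultures low, and was not called. Of 8 tested adipocyte genes 6 were lower, among them Cidea and Cfd, against 24.3% of all genes. With a signal required on both sides 3 adipocyte genes were left and 1 was called lower. The rest had passed the filter only through adult heart. Among 8 Schwann and neural genes 3 were lower and 1 was higher, against 24.3% and 24.7% of all genes. The higher call, of the myelin enzyme gene Cnp, ended without the postmortem ventricular, the living atrial or either fetal array (limma adjusted p = 0.0691 to 0.0828), and 2 of the 8 were called lower without the postmortem ventricular array.

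Across all genes with a RefSeq protein-coding match, the 12 largest called differences in the lower direction were heart muscle and blood genes, namely Actc1, Mb, Myh6, Ckmt2, Myl3, Myom2, Tcap, Myl2, Csrp3 and the globin genes Hbb-b1, Hbb-b2 and Hba-a1. The 12 largest fitted differences in the higher direction were all of genes dim in adult heart, so their order rests on background values and bounds are given. They need not be the largest folds: Cdkn2a, measured on both sides, was 208-fold higher. Slc1a6, a glutamate transporter known from the cerebellum, read 3.35, 5.33, 5.06 and 5.12 (at least 279-fold higher, adjusted p = 0.000332, limma). Adamts4, a protease of aggrecan, was at least 111-fold higher (2.46 to 3.93), and Ptx3, a pentraxin of innate immunity, at least 198-fold (0.79, 4.83, 5.28 and 5.99). Steap1, a metalloreductase, Gdf6, a bone morphogenetic protein, and Trim12a were at least 118-, 94.6- and 70.7-fold higher. Col2a1, the cartilage collagen, read 5.37, 4.14, 1.18 and 2.42, at least 103-fold higher, with postmortem cultures above living ones. Col4a6, a basement membrane chain, was at least 91.7-fold higher on 1 probe and differed by 0.21 on its other. Fhdc1, a formin, was at least 79.6-fold higher; Il6, Lox and Oas1a complete the group.

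Circadian and immediate early genes, which follow time of day and handling, were also examined. Of 14 tested clock genes 6 were lower and 1 was higher, against 24.3% and 24.7% of all genes, with a median of -0.76. Hlf and Per2 were lower by 5.16 and 2.44, and Arntl, the positive limb of the clock, was higher by 1.45. Of 18 immediate early genes 4 were higher and 2 lower, both below the shares over all genes, with a median of 1.16. Fos read 4.98 in postmortem atrial CMPs and 0.24 to 1.45 in the other cultures against -0.09. Atf3, a stress factor, was lower by 3.84 and Junb higher by 2.83. Neither collection times nor the interval to lysis were used here.

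Sex-linked genes differed as well. Xist, expressed from the inactive X chromosome, read -1.51, -1.51, -1.23 and -1.33 on the CMP arrays and was dim in adult heart, at least 4.04-fold higher. Ddx3y on the Y chromosome was dim on all CMP arrays and read 1.99 in adult heart, at least 71.5-fold lower. Eif2s3y, also on the Y chromosome, read -6.35, -2.30, -6.28 and -6.19 against 2.88 and was called lower by 8.16; postmortem ventricular CMPs were the 1 culture in which it stood well above background. The labels give no sex for any sample, so the sex of the animals and the sample type cannot be told apart in these data.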

How the data were processed

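RNA (Cy3-labelled) was read on 7 one-colour Agilent arrays. The deposited scanner files give each spot's processed intensity, background-subtracted by Feature Extraction 10.7.3.1 per the file headers (9.5.3 per the submitters' processing notes), with mm9 probe positions. The deposited series table holds log2 values that equalled the log2 scanner intensity minus a constant per array, within 0.001, for over 99.4% of probes per array. That constant was estimated from the values and not set to the 75th percentile. The authors' steps beyond this are not given in the sources used here.

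Here log2 intensity minus each array's 75th percentile was used. Of 55681 probes, 11 were left out for outlier flags, spots of a probe were averaged, and the probe with the highest mean stood for each of 34792 gene names; 22389 names matched RefSeq. Genes well above background on all 4 CMP arrays or in adult heart entered a limma fit (version 3.58.1, run under R 4.3.3; group means over all 7 arrays, empirical Bayes with trend, Benjamini-Hochberg threshold 0.05), after the script was tested on simulated data. A fold is given as "at least" where a whole side was dim. The number of arrays limits the precision.

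Members and lists were chosen with earlier results of these data known. Genes were named by rule: the 12 largest called differences each way among protein-coding RefSeq matches with adult heart outside the CMP range, up to 4 leading and 2 opposing members per list, all isoform pairs, muscle and cardiac factor genes measurable in all CMPs, and the surface, progenitor and sex-linked lists. Other named genes were chosen after their values were seen, by their role.

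Alternatives were normexp background correction (offset 50), quantile and median centring, the deposited table, averaged probes, 2 other filters, limma without trend or with a robust prior, CMP and adult arrays alone, terms for state and chamber, and leaving out each array. Counts of list members without each CMP array, calls against fetal heart under each setting and 2-fold counts under each normalization were added after seeing the data. A few list members are counted but not reported by name here.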

Additional observations from a re-analysis of the deposited data

Results flagged for a closer look

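Among 180 named genes with signal on at least 1 CMP array, 20 had a culture that lay far from the other 3 by Dixon's criterion; chance flags about 1 in 20 groups. Postmortem atrial CMPs were the outlying culture for 9 of them. They were high for Thy1 (8.83 against 7.61 to 7.69), Tnni1 (-1.0 against -3.02 to -2.86) and Hrc (0.98 against -2.78 to -2.27). They were low for Gata4 (1.32), Tbx20 (2.11), Tcf21 (0.81), Col12a1 (-0.54), Slc1a6 (3.35) and, by a small margin, Atp5c1 (5.97 against 6.08 to 6.09).

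Living ventricular CMPs lay apart for Csf1 (7.23 against 6.54 to 6.60), Tpi1 (6.87), Eef1a1 (8.31) and Nppb (-5.57, at background). Living atrial CMPs did so for Hand2 (3.14 against 2.57 to 2.60), Acaca (4.02) and Esrrb (-5.50, at background). Postmortem ventricular CMPs were low for Csf1r (1.61 against 2.23 to 2.29), Slc2a4 (-2.49) and Esrrg (-5.97, at background), and high for Eif2s3y (-2.30 against -6.35 to -6.19). Gata6 lay above adult heart in both atrial cultures (mean difference 0.56) and below it in both ventricular cultures (mean difference -0.32); the difference between the chambers was not tested.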

How the results depend on the processing

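The number of called genes ran from 7179, when a gene had to be well above background in CMPs and adult heart alike, to 10931 without the postmortem atrial array, with 8479 to 10931 when 1 CMP array was left out. That stricter filter left 2985 genes called lower, since it removes genes dim in CMPs. It also turned the median of the ion channel list to 0.039, that of the epicardial list to 2.09 and that of the natriuretic list to 0.58. Slc8a1 was at -2.49 when its probes were averaged. Median centring shifted the median over all genes to -0.23, and 40.6% of calls were then higher against 50.4%. Of 191 called named genes 171 kept their call under all settings that tested them, and of 3715 gene and setting pairs 3589 kept direction and call, 81 lost the call, 44 gained it and 1 turned. With terms for state and chamber 10 cytokine genes were called higher.

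No paired analysis was possible because adult heart was a single array of purchased RNA. The slide as a block was not run because all arrays lie on 1 slide. Adult heart rests on 1 array, whose floor was higher than that of the CMP arrays, so dim genes carry bounds only.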
